A study of Mus musculus with 21 samples.

Results

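The transcripts described here are 9 genes that mark neutrophils, the short-lived granulocytes of blood and bone marrow: the alarmins S100a8 and S100a9, the granule genes Camp, Ngp, Ltf, Lcn2 and Mmp8, and the neutrophil genes Retnlg and Hdc. They were chosen by name, as a gauge of neutrophil RNA in brain microglia preparations. All 9 were among the 18079 genes of the genotype table, and 7 were among the 13297 genes of the injection table, which has no entry for Ltf or Mmp8.

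The libraries were 3′ tag sequencing libraries of microglia, which are the macrophages that live in brain tissue, from 4 groups. Apoe knockout (KO) libraries (n = 4) carry the labels female and B6.129P2-Apoetm1Unc/J, a strain whose Apoe gene, which codes for a lipid carrier, is disrupted in every cell of the body. Wild-type (WT) libraries (n = 7) carry the labels female and C57BL/6. Neither group was injected. The other two groups are males of the knockout strain and so both lack a working Apoe gene. One (n = 5, rAPOE) had recombinant APOE protein reconstituted in phosphate-buffered saline injected into the left hemisphere 16 h before collection, and the other (n = 5, PBS) had the saline. All mice were 12 to 18 weeks old, the labels name no tumour in these brains, and they do not say which hemisphere an injected library holds. Nor do they state whether each library is a different mouse, and the p-values then reflect only how far these samples spread, which may be technical.

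Neutrophils make their granule proteins in stages while they mature in the bone marrow, and store them for release at sites of infection or injury. S100A8 and S100A9 form calprotectin, a calcium- and metal-binding protein that is among the most abundant proteins of the neutrophil cytosol. Healthy brain tissue holds few neutrophils, and these sit mostly in vessels, in the meninges and in the choroid plexus. Some members have other sources as well. Lcn2 can be made by activated glia and endothelium, and Hdc, which makes histamine, by mast cells, basophils and a group of hypothalamic neurons.

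S100a8 (ENSMUSG00000056054.9) lies on chromosome 3 at 90668978 to 90670035 on the plus strand, and S100a9 (ENSMUSG00000056071.12) at 90692632 to 90695721 on the minus strand (GENCODE M21, GRCm38), with 22.6 kb between them. Chromosome 9 holds Camp at 109847379 to 109849617 (minus), Ngp at 110419747 to 110423012 (plus) and Ltf at 111019271 to 111042767 (plus), with gaps of 570 kb from Camp to Ngp and 596 kb from Ngp to Ltf. It also holds Mmp8 at 7558456 to 7568485 (plus), far from the other 3. Lcn2 lies on chromosome 2 at 32384633 to 32388252 (minus), Hdc on the same chromosome at 126593667 to 126619299 (minus), and Retnlg on chromosome 16 at 48872621 to 48874496 (plus). All are protein-coding, and the annotation has no other gene that overlaps any of them.

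The bases just upstream of 5 members are shown from RefSeq (GRCm38.p6), because S100a8, S100a9, Ngp and Camp shared one pattern across the genotype libraries and Mmp8 had the lowest adjusted p of the members. Each is the 250 bases before the RefSeq start, 5′ to 3′ on the strand of the gene, without the bases that GENCODE M21 counts as part of the gene. Regions are chr3:90668821-90668977 (plus) for S100a8, chr3:90695722-90695971 (minus) for S100a9, chr9:110419558-110419746 (plus) for Ngp, chr9:109849618-109849706 (minus) for Camp and chr9:7558179-7558428 (plus) for Mmp8. Capitals mark matches, on either strand, to TTNNGNAA, a pattern of sites for C/EBP factors, and GAGGAAGT, a core of sites for PU.1, both of which are transcription factors of the myeloid lineage.
S100a8: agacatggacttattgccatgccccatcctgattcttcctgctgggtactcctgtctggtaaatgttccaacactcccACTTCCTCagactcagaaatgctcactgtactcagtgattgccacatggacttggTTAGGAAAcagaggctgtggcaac
S100a9: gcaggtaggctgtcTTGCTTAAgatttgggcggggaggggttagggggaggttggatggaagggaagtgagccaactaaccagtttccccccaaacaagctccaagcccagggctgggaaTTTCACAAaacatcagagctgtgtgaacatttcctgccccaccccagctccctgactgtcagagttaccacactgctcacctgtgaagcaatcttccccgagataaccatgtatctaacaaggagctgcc
Ngp: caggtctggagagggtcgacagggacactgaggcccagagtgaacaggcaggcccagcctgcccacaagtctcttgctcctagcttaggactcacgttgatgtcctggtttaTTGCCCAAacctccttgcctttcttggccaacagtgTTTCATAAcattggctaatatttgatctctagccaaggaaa
Camp: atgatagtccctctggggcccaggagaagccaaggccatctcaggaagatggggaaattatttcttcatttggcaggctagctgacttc
Mmp8: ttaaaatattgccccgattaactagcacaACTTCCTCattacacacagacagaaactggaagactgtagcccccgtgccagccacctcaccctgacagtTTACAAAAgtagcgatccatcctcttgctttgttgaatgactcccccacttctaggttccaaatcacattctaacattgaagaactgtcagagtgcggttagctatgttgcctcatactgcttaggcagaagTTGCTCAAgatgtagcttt
Over the full 250-base windows, TTNNGNAA was found in 7 of the 9 members (all but Camp and Hdc) and in 36.8% of all 32851 promoter windows of the table. Ngp held 3 matches, the last of which lies 11 to 4 bases before the start and so outside the stretch shown. GAGGAAGT was found in 2 members, S100a8 and Mmp8, and in 2.44% of all windows. Both of these matches read on the minus strand of the window, as ACTTCCTC. The 2 patterns share no base in any member window, and a match is a description of the letters only.

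Before the comparisons, some properties of the libraries bear on all of them. KO libraries held 4247865 to 4969287 reads, WT libraries 2016972 to 3054976, rAPOE libraries 857059 to 1119059 and PBS libraries 704225 to 1347501. Of the genes tested, 11.4% to 27.3% had no read in a given KO library, against 0.144% to 0.644% in the WT libraries other than 8 and 2.48% in WT library 8. Apoe was at 0 to 23.1 in KO libraries, against 13196 to 17163 in the WT libraries other than 8. The library labelled WT 8 stood apart, with Apoe at 1011. It held no Y-linked read and Xist at 3291, as the KO libraries did (no Y-linked read, Xist 1980 to 3292), whereas the other libraries labelled WT female had Xist at 1127 to 1279 and between 11 and 36 Y-linked reads. Among the libraries labelled male, rAPOE 5 and PBS 5 held Xist at 718 and 979 and no Y-linked read. Member results that rest on these libraries are given with and without them, as are list counts where leaving them out moves the count by over 1.5 times, and the part of sex markers, depth and undetected genes in the results was not tested.

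Across genotypes, the 4 most abundant members were higher and 2 of the 5 scarcer ones lower in most KO libraries. S100a8, S100a9, Camp and Ngp were above all WT libraries in 3 of 4 KO libraries, by group means of 1.54-fold to 2.64-fold, but none of them passed the test. Mmp8, the neutrophil collagenase, and Hdc, histidine decarboxylase, were lower in the KO libraries and passed (limma adjusted p = 0.0148 and 0.0486). Thus 2 of the 9 members passed in limma, both lower, and 0 passed as higher. At an unadjusted p under 0.05 in limma there were 3 members (Camp higher, Mmp8 and Hdc lower), against 3794 of the 10401 genes tested. While edgeR called 0 members, DESeq2 called 1, Camp. Of all genes tested, edgeR called 499 higher and 1159 lower, and DESeq2 called 647 higher and 1617 lower. In limma 25% of the 10401 genes passed, 19.8% lower and 5.14% higher, so that the members' share was near that of all genes.

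S100a8 had normalised counts (reads divided by a library-wide factor) of 1642, 921, 2230 and 3167 in KO libraries 1 to 4, against 1316, 1382, 1198, 1223, 996, 1025 and 79.4 in WT libraries 1, 2, 3, 4, 6, 7 and 8. KO library 2 lay below each WT library except 8, the other 3 KO libraries lay above them all, and the groups overlapped. The means were 1990 ± 950 in KO and 1031 ± 443 in WT (SD, n = 4 and 7), and the difference was 1.17 on the log2(normalised count + 1) scale (95% interval −0.22 to 2.55, limma adjusted p = 0.207).

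S100a9, its partner in calprotectin, had 913, 395, 870 and 1732 in KO, against 820, 746, 716, 757, 635, 709 and 52.4 in WT. The order of libraries was much the same, with KO 4 highest, KO 2 lowest among the KO libraries and WT 8 lowest of all. Its log2 difference was 0.78 (−0.60 to 2.15, limma adjusted p = 0.400). The ratio of S100a8 to S100a9 tags was 1.798 to 2.56 in the KO libraries and 1.45 to 1.85 in the WT libraries, with medians of 2.08 and 1.61. WT 8 lay at 1.52, within the WT range, and all 4 KO libraries lay above each WT library other than 2.

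Camp, the cathelicidin precursor of an antimicrobial peptide of the specific granules, had 241, 77.9, 360 and 372 in KO, against 127, 103, 97.3, 146, 117, 94.9 and 10.8 in WT. Its difference of 1.45 was the largest of the 4 abundant members (95% interval 0.13 to 2.77, limma adjusted p = 0.105, unadjusted p = 0.0339 in the same limma fit). Ngp, a neutrophil granule protein of the cystatin and cathelicidin type known from the mouse, had 387, 156, 593 and 791 in KO, against 319, 292, 251, 320, 201, 223 and 10.8 in WT. Its log2 difference was 1.28 (−0.37 to 2.92, limma adjusted p = 0.243). In both genes KO 2 was again the low KO library and WT 8 the low WT library. Camp passed in DESeq2 on recovered reads (1.40, adjusted p = 0.0317) and without KO library 2 (1.95, limma adjusted p = 0.0370).

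**Figure D1:**
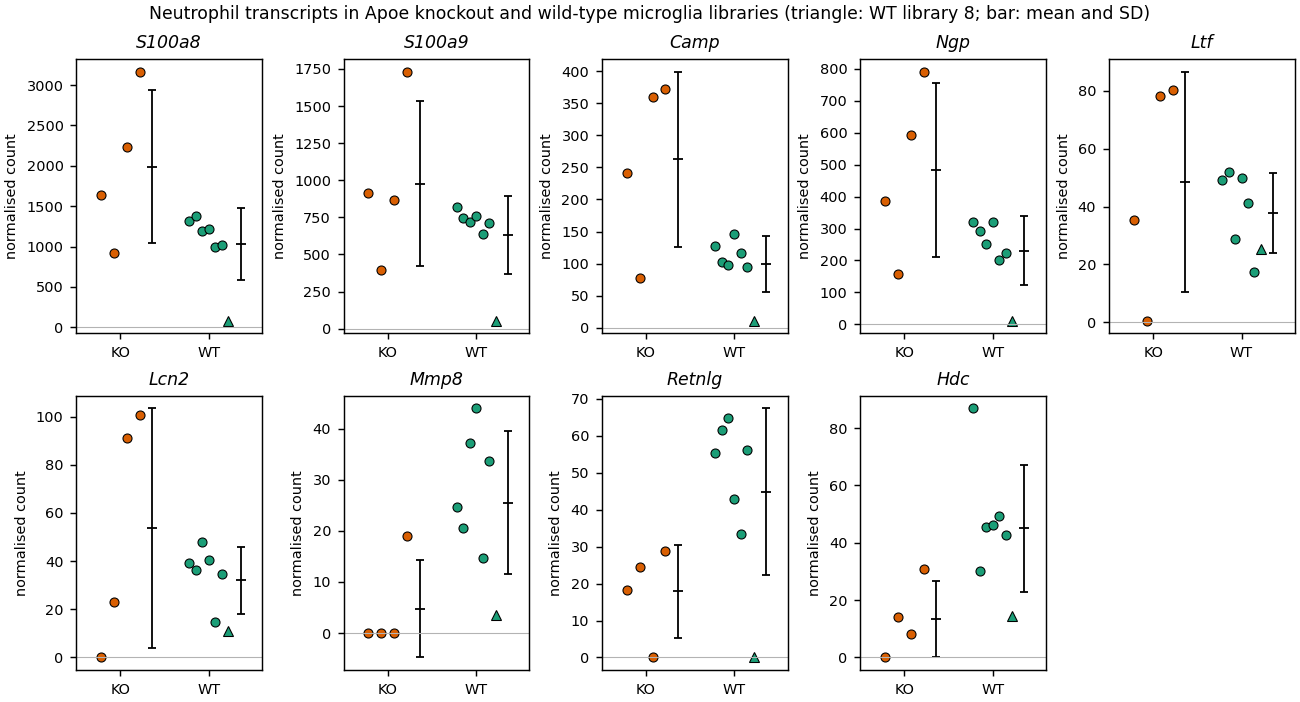
Normalised count (y axis, linear) of each of the 9 members in KO (left, orange) and WT (right, green) libraries. Points are libraries, the triangle is WT library 8, and bars to the right of the points are the mean and SD (n = 4 and 7). S100a8, S100a9, Camp and Ngp show 3 KO libraries above all WT libraries, whereas Mmp8 is at 0 in 3 of 4 KO libraries.

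Ltf and Lcn2, both of the iron-withholding kind, scattered widely in the KO libraries. Ltf, lactoferrin, which binds iron, had 35.2, 0.445, 78.2 and 80.2 in KO, against 49.3, 51.9, 28.8, 49.8, 41.4, 17.3 and 25.3 in WT. KO 2 held a single Ltf read, while KO 3 and KO 4 lay above every WT library. Lcn2, lipocalin 2, which binds the siderophores bacteria use to take up iron, had 0, 23.2, 91.2 and 100.6 in KO, against 39.3, 36.2, 48.0, 40.5, 14.8, 34.7 and 10.8 in WT. For both genes the KO mean was the higher (48.5 ± 38.2 against 37.7 ± 13.8 for Ltf, 53.7 ± 49.7 against 32.0 ± 13.9 for Lcn2; SD, n = 4 and 7), but the log2 difference was below 0 (−0.59 and −0.44, limma adjusted p = 0.663 and 0.777), and its sign turned in edgeR, in DESeq2 and under quantile rescaling.

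Mmp8, a collagen-cleaving protease of the neutrophil granules, had 0, 0, 0 and 19.1 in KO, against 24.6, 20.52, 37.2, 44.0, 14.8, 33.7 and 3.61 in WT. Only KO library 4 held Mmp8 reads among the KO libraries (43 reads), and the groups overlapped because WT 6 and WT 8 lay below it. Mmp8 averaged 4.77 ± 9.53 in KO and 25.5 ± 13.9 in WT (SD, n = 4 and 7), 5.35-fold lower in KO, and fell by 3.37 on the log2 scale (95% interval −5.33 to −1.41, limma adjusted p = 0.0148).

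Hdc had 0, 14.2, 8.21 and 31.0 in KO, against 87.0, 30.2, 45.6, 46.3, 49.3, 42.9 and 14.4 in WT. It averaged 13.4 ± 13.1 in KO and 45.1 ± 22.1 in WT (SD, n = 4 and 7), 3.37-fold lower in KO, and fell by 2.34 (95% interval −4.07 to −0.60, limma adjusted p = 0.0486). Retnlg, resistin-like gamma, a secreted protein of mouse neutrophils, had 18.2, 24.5, 0 and 28.8 in KO, against 55.4, 61.6, 64.9, 42.8, 33.5, 56.1 and 0 in WT. Its log2 difference of −1.43 did not pass (limma adjusted p = 0.403), with WT 8 at 0.

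The Mmp8 call was lost under quantile rescaling (−0.95, limma adjusted p = 0.371) and in both count models (edgeR adjusted p = 0.310, DESeq2 adjusted p = 0.183), as was the Hdc call (quantile rescaling −1.01, limma adjusted p = 0.280, edgeR 0.226, DESeq2 0.0915). Hdc also lost its call under TMM rescaling (limma adjusted p = 0.0528) and when KO library 1 or 3 or WT library 1, 2, 3, 4, 6 or 7 was left out (limma adjusted p of 0.0584 to 0.113). The 5 scarcer members have means between 10 and 50, and of the 4687 tested genes at that level 26% passed as lower and 0.683% as higher, against 14.8% and 8.8% of the 5714 genes with a mean of 50 or more.

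Leaving out WT library 8, where most members were low, made the differences of the abundant members smaller and those of the scarcer ones larger. Without it, S100a8 differed by 0.61 (limma adjusted p = 0.0983), S100a9 by 0.24 (0.567), Camp by 0.98 (0.0665) and Ngp by 0.64 (0.204). Ltf and Lcn2 differed by −0.67 each (limma adjusted p = 0.638 and 0.673). The difference was then −3.74 for Mmp8 (limma adjusted p = 0.00470) and −2.57 for Hdc (0.0324), while Retnlg differed by −2.25 (0.0641), with its KO libraries at 0 to 28.8 and the remaining WT libraries at 33.5 to 64.9. Of the genes tested in this setting, 30.6% passed (7.64% higher, 23% lower), and 18.1% had all KO libraries below all WT libraries, as Retnlg did. With all libraries, no member had groups that did not overlap, against 3.67% of all genes with KO above and 10.6% with KO below.

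**Figure D2:**
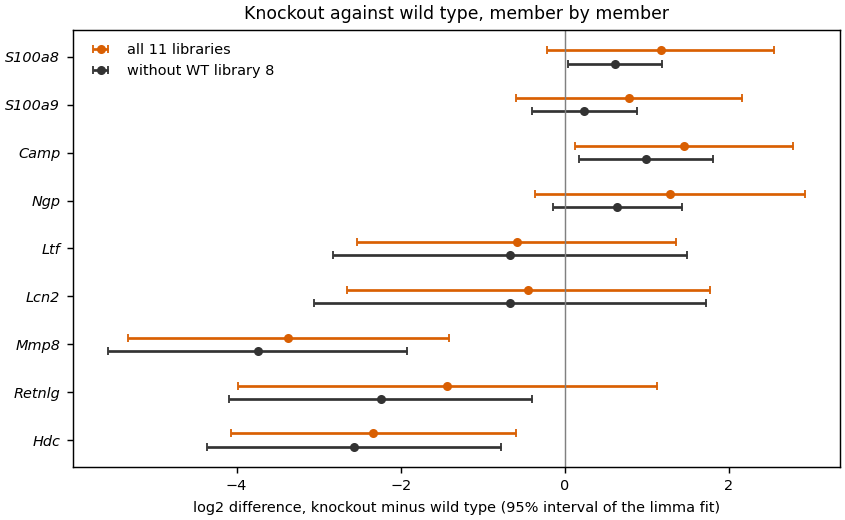
Log2 difference, KO minus WT, of each member with the 95% interval of the limma fit (x axis), from all 11 libraries (orange, upper) and without WT library 8 (dark, lower). The intervals of Mmp8 and Hdc lie below 0 in both fits. Those of Camp lie above 0 in both, and those of S100a8 and Retnlg exclude 0 only without WT 8, though none of these 3 genes passed after adjustment.

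Summed over the 9 members, KO libraries held 3236, 1612, 4231 and 6323 normalised counts, against 2103 to 2838 in the WT libraries other than 8 and 208 in WT 8. The KO libraries thus spread over a range that encloses all WT libraries other than 8. WT 8 was 12.1-fold below the mean of the other WT libraries, with Ngp 24.7-fold, S100a8 15.0-fold, S100a9 13.95-fold, Camp 10.5-fold, Mmp8 8.07-fold, Hdc 3.48-fold, Lcn2 3.29-fold and Ltf 1.57-fold below. As these are bulk samples, fewer neutrophils and less of a transcript per neutrophil cannot be told apart. The S100 pair made up 73.3% to 81.6% of the member reads in KO libraries, against 74.2% to 78.1% in the WT libraries other than 8 and 63.5% in WT 8. The ratio of Camp and Ngp tags to S100 tags was 0.178, the lowest among the KO libraries, in KO 2, and 0.307, the highest, in KO 3, against 0.164 to 0.235 in the WT libraries. The spread over WT libraries other than 8 was small for the abundant members, with a coefficient of variation of 8.38% for S100a9, 12.95% for S100a8, 17.4% for Camp and 18.8% for Ngp, while in the KO libraries it was 47.7% to 56.8% for these 4.

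The genes whose deviations from the group means were most like those of the S100 pair were ranked over the 11 genotype libraries, as a description. The likeness (Pearson's r with the mean deviation of S100a8 and S100a9, log2 scale) was 0.995 for Gusb, the lysosomal beta-glucuronidase, 0.994 for Ngp and 0.987 for Cd52, a small leukocyte surface glycoprotein. Cotl1, Laptm4a, Gm11942, Tagln2 and Shisa5 came next, with r of 0.966 to 0.972, and Camp stood at 0.962. WT 8 weighs heavily in this ranking, and all points share libraries and depth. Its column was then left out (n = 10), but deviations were still taken from the group means of all 11 libraries. This ranking is thus not free of WT 8. In it Gusb (0.981), Ngp (0.974) and Cd52 (0.946) still led, followed by Cd44 (0.905), Rpl18 (0.898), Camp (0.892), Lmnb1 (0.888) and Shisa5 (0.886). Among the scarcer members r was then 0.779 for Ltf, 0.682 for Mmp8, 0.315 for Lcn2, 0.204 for Hdc and 0.0967 for Retnlg.

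The other neutrophil lists were mixed in the KO libraries. Of 10 further granule and secreted genes tested, 4 fell and 0 rose (median log2 difference −1.80, against −0.45 over all genes tested). The log2 difference was −5.78 for Slpi, an inhibitor of neutrophil elastase (limma adjusted p = 0.00901), −4.90 for Lrg1, a secreted glycoprotein (0.00577), −2.47 for Cybb, the catalytic subunit of the phagocyte oxidase (0.0456), and −2.23 for Lyz2, the lysozyme of myeloid cells (0.0462). The last 2 calls were lost under TMM rescaling (limma adjusted p = 0.0501 and 0.0517), and microglia also express Cybb and Lyz2. Quantile rescaling, which moved the median of all genes to 0.09, moved that of this list to −0.11, with 5 of 10 above 0 and 4 falling. Without WT 8, 5 of the 11 then tested fell and 1 rose. Of the azurophil granule genes, which are made earlier in maturation than those of the other granules, Prtn3, proteinase 3, alone was tested and fell (limma adjusted p = 0.00412), with no read in any KO library or in WT 8 and a mean of 27.7 in WT. Against a floor of 3 reads per KO library this is at least 19.6-fold lower in KO. The call was lost under quantile rescaling (−1.48, limma adjusted p = 0.179). Such bounds, here and below, take a gene without a read to lie under that floor. This was not tested, and 11.4% to 27.3% of the genes tested had no read in a given KO library. Mpo, the myeloperoxidase, was at 5.87 ± 11.7 in KO and 10.6 ± 8.28 in WT (SD, n = 4 and 7), and Elane, neutrophil elastase, had no read in KO libraries and was at 2.29 ± 3.11 in WT. Both were below the filter.

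Surface genes were mixed, with 1 of 9 tested higher and 3 lower (median −2.39), and 2 higher and 5 lower without WT 8. Selplg, the P-selectin ligand, which microglia also express, rose by 0.77 (limma adjusted p = 0.00114), while Clec4d, a C-type lectin receptor with no KO read (at least 44.0-fold lower, 0.00242), and Cxcr4, the chemokine receptor that holds neutrophils in the marrow (−3.65, 0.0325), were among those that fell. Under quantile rescaling the median of this list was −0.14, where 1 rose and 1 fell, and the call of Cxcr4 was lost both there (limma adjusted p = 0.111) and with the count model of edgeR (0.104). The receptors that define neutrophils were scarce. Ly6g was at 6.10 ± 12.2 in KO and 6.43 ± 4.25 in WT, and Cxcr2, which responds to neutrophil chemokines, at 5.19 ± 10.4 in KO and 2.54 ± 4.66 in WT, each with reads in 1 of 4 KO libraries. Csf3r, the receptor for the growth factor G-CSF, was at 150 ± 41.2 in KO and 170 ± 31.1 in WT (−0.20, limma adjusted p = 0.544). Microglia express Csf3r too.

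Of 6 neutrophil transcription factors tested, 2 rose and 0 fell (median 0.41): Cebpa by 0.64 (limma adjusted p = 0.0136) and Ets1 by 0.72 (0.0479), both also found in other cells of these preparations. Cebpe, the factor of late granule genes, had a mean of 1.22 in KO and 1.09 in WT, and Gfi1 had no read in KO and 0.767 in WT. Among neutrophil chemokines and growth factors 2 of 7 fell and 0 rose (median −1.37): Ppbp, a platelet chemokine with no KO read (at least 35.1-fold lower, limma adjusted p = 0.00281), and Ccl4 (−1.37, 0.0208). Without WT 8, 5 of the 7 fell. Of 5 adhesion molecules through which leukocytes hold to vessels, 4 fell, Selp (no KO read, at least 35.7-fold lower), Icam2 (−5.71), Cd34 (−1.25) and Vcam1 (−1.24), and Icam1 rose (1.06) (limma adjusted p = 0.00285, 0.00621, 0.00827, 0.0145 and 0.00870 in that order).

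The receptors of the member proteins also split. Tlr4 and Cd14, through which S100A8 and S100A9 act on myeloid cells, rose by 1.39 and 0.76 (limma adjusted p = 0.00294 and 0.0153). Tlr4 averaged 207 ± 36.1 in KO and 82.0 ± 32.1 in WT (SD, n = 4 and 7), and Cd14 353 ± 14.8 in KO and 213 ± 49.0 in WT. Ly96, the co-receptor of Tlr4, did not pass (0.56, limma adjusted p = 0.474), and Ager, a second S100 receptor, had no read in KO and 0.957 in WT. Slc22a17, a receptor of LCN2, fell by 5.36 (limma adjusted p = 2.58e-04), and so did Cd36, a scavenger receptor (−4.52, 0.00259), whose call was lost in edgeR (adjusted p = 0.0901). Of 8 other S100 genes tested, 6 fell and 0 rose (median −3.96), led by S100a4 and S100a16, with no KO read (at least 99.2-fold and 27.7-fold lower), S100b (−4.39) and S100a1 (−2.31), with limma adjusted p from 3.02e-04 to 0.00128. None of the 8 had a log2 difference above 0, and this held under TMM and quantile rescaling, in edgeR and in DESeq2, where 5 or 6 fell. S100a8 and S100a9 were above 0 in each of these settings.

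The S100 sum was 1316 to 4899 in KO libraries, against 1630 to 2136 in the WT libraries other than 8 and 132 in WT 8, and the sum of the 5 specific and gelatinase granule members was 258 to 1364 in KO, against 389 to 600 and 61.4 in WT 8, with KO 2 below those WT libraries in both. The 19 further granule and secreted genes came to 1733 to 2524 in KO, against 6204 to 8058 and 605 in WT 8, and the 4 azurophil granule genes to 0 to 23.5 in KO, against 32.6 to 64.1 and 0 in WT 8. Sums of blood cell markers were lower in each KO library than in each of those 6 WT libraries. In the KO libraries, the summed level of 10 monocyte markers was 92.5 to 300, against 1482 to 1757 in the WT libraries other than 8 and 166 in WT 8. For 8 mast cell and basophil markers it was 0 to 16.8 in KO, against 267 to 300 in those WT libraries and 0 in WT 8, with the mast cell proteases Cpa3, Tpsb2 and Cma1 at 0 in every KO library. The 8 T and NK cell markers came to 0 to 5.79 in KO, against 41.4 to 123 and 1.81 in WT 8, the 6 platelet markers to 23.5 to 59.6 in KO, against 492.8 to 618 and 135 in WT 8, and the 7 red cell markers to 155 to 729 in KO, against 2101 to 2947 and 135 in WT 8. Of the tested markers of these lists, by limma, 5 of 8 monocyte genes fell and 1 rose, and 3 of 3 mast cell genes, 1 of 1 T and NK cell genes, 4 of 5 platelet genes, 1 of 5 red cell genes and 2 of 5 B cell genes fell, against 19.8% of all genes tested. Without WT 8, where 23% of all genes fell, it was 4 of 5 red cell genes, 3 of 5 B cell genes and 2 of 2 T and NK cell genes. Choroid plexus markers (8 of 8 fell) were at 435 to 872 in KO, against 57278 to 83401 and 23658 in WT 8. The 7 B cell markers came to 252 to 523 in KO, against 586 to 858 and 343 in WT 8, the 8 astrocyte markers (5 of 6 tested fell) to 511 to 1017 in KO, against 1341 to 1660 and 906, and the 8 endothelial markers (2 of 7 fell) to 165 to 329 in KO, against 384 to 484 and 244. The 10 microglia markers, by contrast, were all detected in every library and summed to 69118 to 81297 in KO, against 51293 to 54138 and 66703 in WT 8, with 6 of 10 higher. Fewer of these markers passed under quantile rescaling, where 2 of 5 platelet genes, 1 of 5 B cell genes, 3 of 6 astrocyte genes and 0 of 1 T and NK cell genes fell. In edgeR 1 of 6 astrocyte, 1 of 7 endothelial and 1 of 5 B cell genes fell, in DESeq2 3 of 5 red cell genes fell and 1 of 7 endothelial genes rose, and without WT 8 it was 4 of 7 endothelial genes that fell. The part of these cells in the member results was not tested.

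In WT library 8 the S100 pair, Camp, Ngp, Mmp8, Retnlg, azurophil genes, mast cell and monocyte markers were low together, while Ltf, at 25.3, lay within the range of the other WT libraries. The low Hdc of the KO libraries came with mast cell markers at or near 0. Of the histaminergic neuron list, Hdc was the one gene tested.

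**Figure D3:**
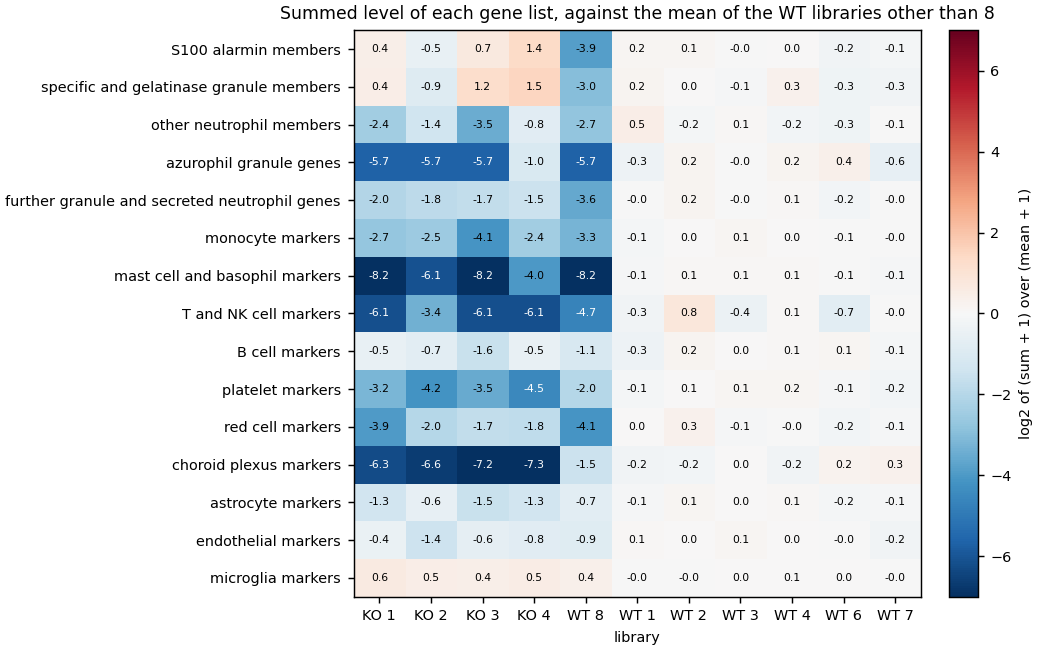
Summed level of each gene list (rows) in each genotype library (columns, KO on the left), as the log2 of the sum plus 1 over the mean of the WT libraries other than 8 plus 1. Colours run from −7 to 7, and the number is printed in each cell. The S100 and the specific and gelatinase granule rows are above 0 in KO 1, 3 and 4, while the other blood cell rows are below 0 in all KO libraries and in WT 8.

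At 16 h after injection the members were scarce in all libraries, and none differed between rAPOE and PBS beyond the spread. Of the 7 members in the table, S100a8, S100a9 and Camp passed the filter on low values. None of the 3 passed the test with limma, 0 had an unadjusted p under 0.05, and edgeR and DESeq2 also called 0. Of all 7066 genes tested, 0.481% passed (0.368% higher, 0.113% lower), and 792 had an unadjusted p under 0.05 in limma.

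S100a8 had normalised counts of 56.6, 38.3, 6.02, 8.54 and 38.1 in rAPOE libraries 1 to 5, against 6.62, 49.3, 83.2, 16.5 and 43.1 in PBS libraries 1 to 5. It averaged 29.5 ± 21.7 in rAPOE and 39.7 ± 30.1 in PBS (SD, n = 5 each), with a log2 difference of −0.41 (95% interval −2.06 to 1.23, limma adjusted p = 0.886). Low and high libraries occurred in both groups.

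S100a9 had 30.6, 18.2, 0, 33.4 and 19.4 in rAPOE, against 26.5, 24.0, 20.8, 7.24 and 28.3 in PBS. Its log2 difference was −0.62 (−2.61 to 1.38, limma adjusted p = 0.853). rAPOE library 3 was the lowest for both S100 genes, with 6 S100a8 reads and no S100a9 read, and without it the differences were 0.0082 and 0.32. Camp had 0, 38.3, 0, 16.3 and 2.33 in rAPOE, against 80.3, 0, 52.8, 9.22 and 12.9 in PBS, so that both groups held libraries at 0. Its log2 difference was −1.62 (−4.40 to 1.16, limma adjusted p = 0.695).

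The other 4 members had no read in most libraries, where 3 reads correspond to a level of 2.33 to 3.54 in the rAPOE and 1.93 to 4.80 in the PBS libraries. Ngp had no read in any rAPOE library, against 0, 0, 9.60, 2.63 and 5.15 in PBS. Lcn2 had 0, 0, 0, 5.43 and 6.995 in rAPOE, against 0, 0, 0, 2.63 and 1.29 in PBS. Retnlg had 0, 3.03, 0, 0 and 2.33 in rAPOE and no read in PBS, and Hdc had 0, 0, 0, 10.1 and 14.8 in rAPOE, against 0, 0, 0, 0 and 6.44 in PBS. With no filter on low values, where 0.256% of all genes passed, none of these 4 passed (limma adjusted p = 0.615, 0.905, 0.711 and 0.838), and Ngp had an unadjusted p of 0.0348 in the same limma fit. In that fit 1007 of 13297 genes had an unadjusted p under 0.05. Reads of Lcn2 came from libraries 4 and 5 of each group. Those of Hdc came from rAPOE 4 and 5 (13 and 19 reads) and PBS 5 (10 reads), and the library 5 of both groups goes against its sex label. Libraries 4 and 5 also detected the most genes of each group, 10025 to 11342, against 7601 to 8837 in libraries 1 to 3. The part of detection in where these scarce reads lie was not tested. Without both libraries numbered 5, S100a8 differed by −0.47, S100a9 by −0.64 and Camp by −1.51. None of the 3 passed (limma adjusted p = 0.910, 0.903 and 0.823), where 0.157% of all genes did. With the filter also left out, a setting chosen after seeing the data, Ngp differed by −1.32, Lcn2 by 0.21, Retnlg by 0.50 and Hdc by 0.87. None of these 4 passed (limma adjusted p = 0.805, 0.967, 0.866 and 0.847), where 12 of 13246 genes rose and 2 fell.

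**Figure D4:**
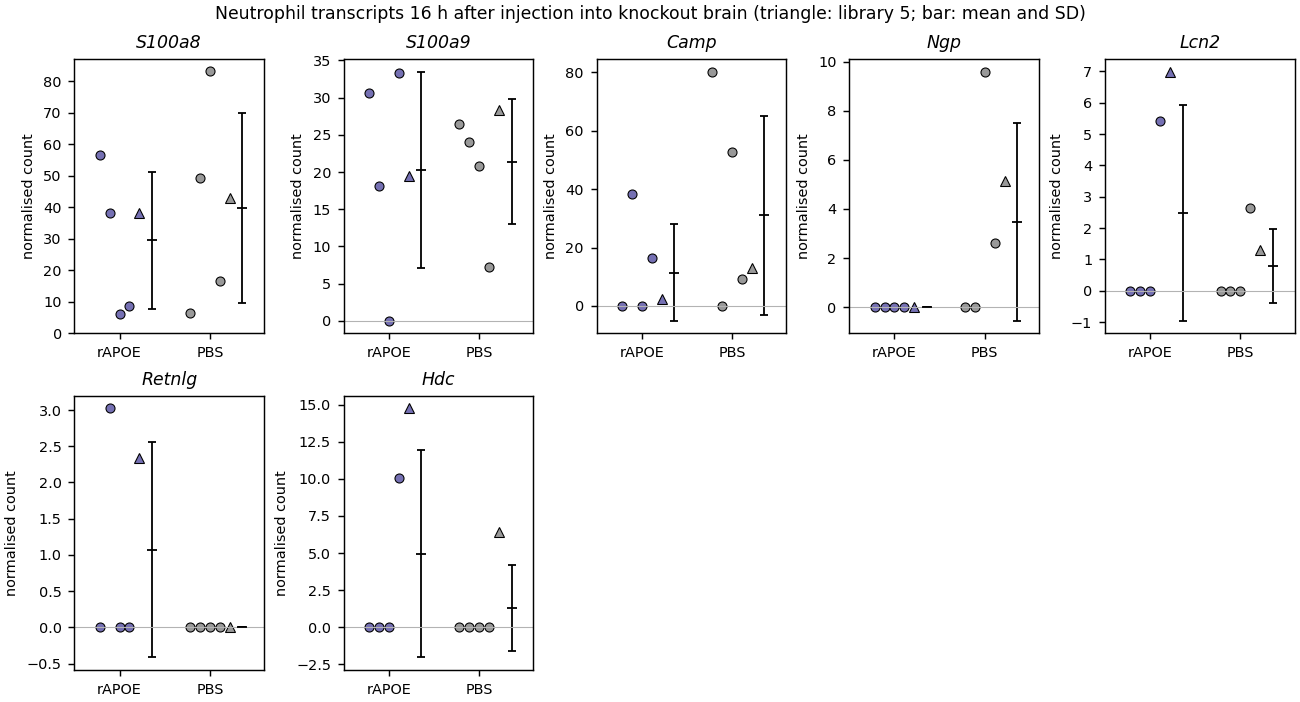
Normalised count (y axis, linear) of the 7 members of the injection table in rAPOE (left, purple) and PBS (right, grey) libraries. Points are libraries, triangles are the libraries numbered 5, and bars to the right of the points are the mean and SD (n = 5 each), which can run below 0 for members at 0 in most libraries. The groups overlap for each member, whereas 1.59% of the genes tested had every rAPOE library above every PBS library and 1.54% below.

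Around them, few neutrophil genes passed after injection. Cybb rose by 4.23 (limma adjusted p = 0.00605), with 217 ± 109 in rAPOE and 14.5 ± 9.67 in PBS (SD, n = 5 each), and was the 1 of 3 further granule and secreted genes tested to pass. Selplg fell by 1.38 (limma adjusted p = 0.00605), the 1 of 5 surface genes to pass, though not without both libraries numbered 5 (−1.11, limma adjusted p = 0.0634). The 6 chemokines and growth factors tested all had differences above 0 (median 1.36, against −0.01 over all genes). But 0 of them passed in limma and edgeR, against 2 in DESeq2 and 4 at an unadjusted p under 0.05 in limma. Of all genes tested, 792 of 7066 had an unadjusted p under 0.05 in limma, and 618 of 7018 without both libraries numbered 5. DESeq2 called 70 of all genes higher and 45 lower. By limma, edgeR and DESeq2 alike, 0 of 6 transcription factors, 0 of 3 adhesion molecules, 0 of 5 receptors of member proteins and 0 of 4 other S100 genes passed, with 1, 1, 2 and 0 at an unadjusted p under 0.05 in limma. Csf3r was at 38.7 ± 36.9 in rAPOE and 38.1 ± 20.8 in PBS, and Cxcr2 at 1.40 ± 1.93 in rAPOE with no read in PBS. Ly6g, Mpo and Elane have no entry in this table. Among monocyte markers, Ms4a6c, which microglia express too, rose by 1.84 (limma adjusted p = 0.0478, but 0.0509 under TMM rescaling and 0.204 without both libraries numbered 5), and the list summed to 91.3 to 661 in rAPOE libraries, against 71.8 to 142 in PBS libraries. Of the 10 microglia markers, all detected in each library, 3 fell in limma (median −0.81), with 4 in DESeq2 and under quantile rescaling, 0 in edgeR and 0 in limma without both libraries numbered 5, against 9 at an unadjusted p under 0.05 in limma with all libraries and 4 without both libraries numbered 5. The list summed to 10768 to 22970 in rAPOE libraries, against 21162 to 25114 in PBS libraries. None of the 1 B cell, 2 red cell, 1 platelet, 3 astrocyte, 1 endothelial and 2 choroid plexus markers tested passed in limma, edgeR or DESeq2, and 1, the platelet gene, had an unadjusted p under 0.05 in limma. The part of these cells in the member results was not tested.

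The rank of likeness to the S100 pair in the injection table (n = 10 libraries) held no member at the top. Of the pair itself, S100a9 stood at rank 33 (r = 0.876) and S100a8 at rank 71 (0.829) of 7066 genes. Cct8 (r = 0.968), Crlf3 (0.956), Gm20604 (0.952), Pptc7 (0.948), Exosc2 (0.936), Snx27 (0.931), Gfm1 (0.922) and Bcap31 (0.917) led, and Camp had an r of 0.121. The values rest on 6 to 49 S100a8 reads per rAPOE library and 8 to 67 per PBS library.

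Between the tables, levels were set side by side as reads per 1000000 reads of each library, with no test, because each table was normalised apart and its libraries differ in sex label, injection and depth. The 7 members present in both tables came to 1328, 728, 2016 and 2848 reads per 1000000 reads in the KO libraries, 831 to 1175 in the WT libraries other than 8 and 49.1 (exact binomial 95% interval 39.9 to 59.8) in WT 8. They came to 86.3, 86.7, 6.22, 88.3 and 101.1 in rAPOE libraries 1 to 5, with an interval of 2.28 to 13.5 for library 3, and to 102, 73.5, 148, 46.8 and 115 in PBS libraries 1 to 5. Each injected knockout library thus held a smaller share of member reads than each uninjected knockout library. Of the 10 injected libraries, 8 lay above the interval of WT 8, PBS 4 lay within it and rAPOE 3 below it. The ratio of S100a8 to S100a9 tags, 1.45 to 2.56 in the genotype libraries, ran from 0.256 to 2.11 in the 4 rAPOE libraries with S100a9 reads and from 0.25 to 4 in PBS libraries, at 8 to 67 S100a8 reads per library. Intervals cover counting error only, since reads carry no molecular identifiers. Injection, sex label and table cannot be told apart here.

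**Figure D5:**
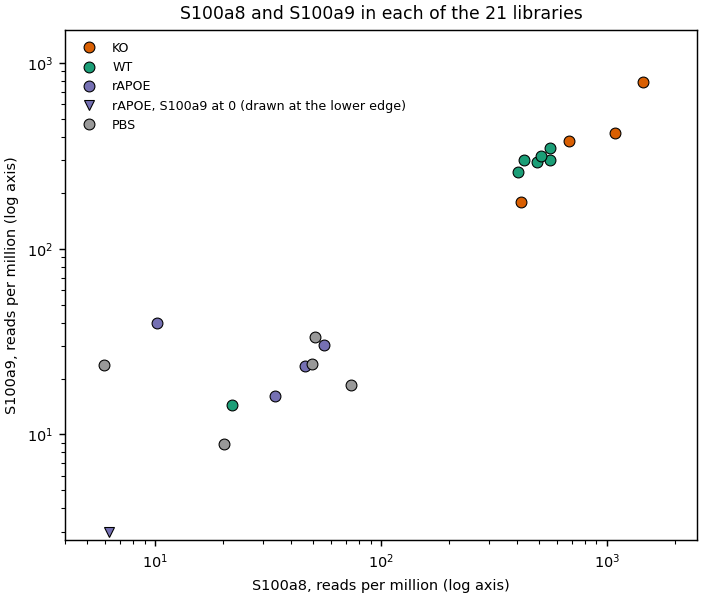
Reads per 1000000 library reads of S100a8 (x axis, log) and S100a9 (y axis, log) in each of the 21 libraries, coloured by group. The downward triangle is rAPOE library 3, with no S100a9 read, drawn at the lower edge. The genotype libraries other than WT 8 lie at the upper right, and WT 8 lies among the rAPOE and PBS libraries.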

How the data were processed

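Per the labels' protocols, total RNA of isolated microglia was made into QuantSeq 3′ FWD libraries and read on a MiniSeq. The tools named in the submitters' processing notes are Picard 1.8.4, HTSeq, R 3.2.3 and DESeq2, with the build GRCm38.p3 and no roles. For the aligner and strand setting, nothing is stated. What the authors deposited is a signal, the normalised count of each gene, with each table normalised apart. In each library 100% of them were within 0.01 of a whole multiple of 1 step, so reads were recovered as value over step. Of 18221 entries of the genotype table, 22 named by dates (0.0966% of the summed values) and 120 at 0 throughout were left out. Tag counts of single transcripts do not scale with their length.

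Values were analysed as log2(normalised count + 1) with limma 3.58.1 (lmFit, eBayes with trend) in R 4.3.3, two-sided. Genes whose mean reached 10 were tested, KO against WT and rAPOE against PBS apart. On this scale a difference can be smaller or larger than the fold of the group means, above all where libraries are at 0. Mmp8 differed by −3.37 in limma and −2.34 in edgeR, with means 5.35-fold apart. Hdc differed by −2.34 in limma and −1.71 in edgeR, with means 3.37-fold apart. Passing means an adjusted p (Benjamini-Hochberg, over all genes of the table) under 0.05. The design allowed for raw and for normalised values, and these were normalised. Alternatives were other pseudocounts (0.5 and 5), no filter or a mean of at least 50, TMM and quantile rescaling, edgeR 4.0.16 and DESeq2 1.42.0 on recovered reads, a replicate block, and libraries left out. The limma step was tested on simulated counts, where recovery was required only for large changes at a small spread. Those counts did not copy the undetected genes of the KO libraries, so the member calls were not checked this way. No 2 libraries of a group agreed within sampling noise.

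All 9 members are named, then up to 4 passing genes per list by adjusted p, the markers Ly6g, Cxcr2, Csf3r, Mpo and Elane, and the 8 genes most like the S100 pair per table. Other genes named were chosen after their values were seen. One gene that the rule names is not reported here. The members and the 22 gene lists (190 genes) were chosen with earlier results of these data known.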

Additional observations from a re-analysis of the deposited data

Results flagged for a closer look

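Of 36 groups of member values examined, 8 had a highest or lowest library far from the others of its group. For normally distributed values chance does so in about 1 in 20 groups. That rate does not hold for groups with libraries at 0, such as the flagged groups of Mmp8 and Hdc, where all other libraries are at 0. Ngp in rAPOE and Retnlg in PBS, at 0 throughout, could not be flagged, and the WT sum holds members flagged themselves. The 8 of 36 can thus not be set against that rate. Of the 8, 5 are the same library, WT 8. WT library 8 was far below the other 6 WT libraries for S100a8 (79.4, the next lowest 996), S100a9 (52.4, the next 635), Camp (10.8, the next 94.9), Ngp (10.8, the next 201) and the sum of the 9 members (208, the next 2103). Mmp8 stood at 19.1 in KO library 4, and the other 3 KO libraries had no read. Hdc stood at 6.44 in PBS library 5, and the other 4 PBS libraries had no read. The sum of the 7 members in rAPOE library 3 was 6.02, with the next lowest rAPOE library at 73.7.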

How the results depend on the processing

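Of the 9 members in the knockout comparison, 2 passed. The count was 1 with a pseudocount of 0.5, under TMM rescaling, in DESeq2 (Camp, higher) and with a replicate block (Mmp8). It was 0 under quantile rescaling and in edgeR, and 1 to 3 with a library left out. With a mean of at least 50 it was 0, but the scarcer members, Mmp8 and Hdc among them, were not tested there. Mmp8 passed in 17 of 20 alternatives (−4.45 to −0.95) and Hdc in 6 of 20 (−2.99 to −1.01). S100a8, S100a9, Camp and Ngp were above 0 in all 21 alternatives run for each, and Retnlg below 0 in all 20. Signs turned for Lcn2 with a pseudocount of 5 (0.016), under quantile rescaling (0.71), in edgeR (0.77), in DESeq2 (0.75) and without KO library 1 (1.04), for Ltf under quantile rescaling (0.56), in edgeR (0.38), in DESeq2 (0.37) and without KO library 2 (0.76), and after injection for S100a8 (0.0082) and S100a9 (0.32) without rAPOE library 3. With a library left out, the ranges were −1.18 to 1.04 for Lcn2 and −1.17 to 0.76 for Ltf, and after injection −0.91 to 0.0082 for S100a8 and −0.96 to 0.32 for S100a9. The cause was not tested. In the injection comparison 0 members passed in any of the alternatives.

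Of the other neutrophil lists (granule, surface and transcription factor genes), 3 genes rose and 8 fell in the knockout. Those that fell were 1 with a mean of at least 50, where genes of lower mean were not tested, and 5 under quantile rescaling. With a library left out, 4 to 11 fell and 2 to 5 rose. Without both the filter and WT 8, a setting chosen after seeing the data, 14 fell and 5 rose. After injection 1 rose and 1 fell, with 2 rising with a pseudocount of 5, under quantile rescaling and in DESeq2, and 0 falling without both libraries numbered 5, with the filter or without it. Over all genes, 535 rose and 2061 fell in the knockout, 920 and 1027 under quantile rescaling, which moves the median of all genes from −0.45 to 0.09.

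Same-numbered libraries were not treated as paired in the main fits. Their deviations correlated at −0.03 to 0.02 in the genotype table (4 pairs) and at 0.00 to 0.19 after injection (5 pairs, 1 best with its own number). The highest were 0.19 for rAPOE 4 with PBS 4 and 0.11 for rAPOE 5 with PBS 5. Between different numbers, rAPOE 5 with PBS 4 reached 0.14. The values cannot decide whether libraries were paired, because libraries of different numbers could be as alike. With the replicate block, 374 genes rose and 1449 fell in the knockout, and 35 rose and 17 fell after injection, against 26 and 8. In the injection table depth limits the members, 4 of which had no read in most libraries.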
